A study of Rattus norvegicus with 6 samples.

Results

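The 78 genes described here carry the names of parts and builders of the axoneme, the microtubule core of motile cilia and of the kinocilium. They were chosen by name, as every protein-coding row of the count table whose symbol belongs to the cilia and flagella associated proteins (Cfap), the axonemal dynein heavy, intermediate and light chains (Dnah, Dnai, Dnal), the dynein assembly factors (Dnaaf), the radial spoke heads (Rsph), the tektins (Tekt), the dynein regulatory complex (Drc), the sperm associated antigens (Spag) or 7 named coiled-coil genes such as Ccdc39 and Ccdc151. They made up 78 of the 32883 rows of the table and 77 distinct symbols, since Spag5 stood on 2 rows. The rule uses names and no measured value, but it was set with earlier results of these data known. The vestibular epithelium was profiled by RNA-seq in 3 Control and 3 STREP Long-Evans rats, 2 males and 1 female in each group, with replicate 3 the female in both. STREP rats received streptomycin, an aminoglycoside antibiotic that damages hair cells (HCs), at 500 mg/kg subcutaneously each day for 6 weeks from postnatal day 21, and Control rats received the vehicle, PBS. The utricles and cristae of both ears were pooled for each animal, so that a library is a mixture of HCs, supporting cells and neighbouring tissue of 1 animal, and the saccule was not included. All 6 libraries stand in the same count table, and no batch term was fitted.

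The axoneme is a ring of doublet microtubules. In a motile cilium, outer and inner arms made of dynein slide the doublets past each other, the nexin-dynein regulatory complex and the radial spokes hold and time that sliding, and a central apparatus sits in the middle. Tektins and other microtubule inner proteins line the doublets, and assembly factors build the dynein arms in the cytoplasm before they enter the cilium. In the vestibular organs each HC carries a kinocilium at the tall edge of its stereocilia bundle, linked to the otoconial membrane or the cupula. Transcription factors of the RFX family, which bind promoter sequences called X-boxes, and the forkhead factor Foxj1 are known to drive genes of the axoneme.

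Promoter sequences were read from RefSeq (build GRCr8), as 250 bases before to 50 bases after the start of each gene and written in the direction of the gene. They were used for 65 of the 78 rows, which gave 63 distinct promoters. The palindromic RFX pair, GTTNC and GNAAC separated by 3 bases, was present in 8 of the 63 (12.7%), against 145 of 19005 promoters of protein-coding genes (0.763%). A longer X-box-like form, with 4 bases between the same ends and AT as the middle pair, was present in 1 member, Dnaaf2, and in 35 of the 19005 (0.184%). Both forms read the same on either strand and cannot match at the same place. The forkhead sequence TGTTTAC, searched on both strands, was found in 3 of the 63 (Dnali1, Tekt3 and Cfap20, 4.76%) and in 633 of the 19005 (3.33%). A match is a description of these letters in this window, not a binding site. The promoters of Dnah7 and Tekt4, 2 of the genes that fell under streptomycin, are shown whole, with the RFX pair in capitals. The Dnah7 promoter is at chr9:62756566-62756865, minus strand, and that of Tekt4 is at chr10:14992034-14992333, plus strand.
Dnah7: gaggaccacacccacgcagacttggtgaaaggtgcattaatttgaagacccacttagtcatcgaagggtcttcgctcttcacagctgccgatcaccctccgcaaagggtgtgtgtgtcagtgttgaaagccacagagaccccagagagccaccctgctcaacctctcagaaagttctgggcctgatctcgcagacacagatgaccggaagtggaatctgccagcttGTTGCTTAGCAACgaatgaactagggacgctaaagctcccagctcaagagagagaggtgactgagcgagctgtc
Tekt4: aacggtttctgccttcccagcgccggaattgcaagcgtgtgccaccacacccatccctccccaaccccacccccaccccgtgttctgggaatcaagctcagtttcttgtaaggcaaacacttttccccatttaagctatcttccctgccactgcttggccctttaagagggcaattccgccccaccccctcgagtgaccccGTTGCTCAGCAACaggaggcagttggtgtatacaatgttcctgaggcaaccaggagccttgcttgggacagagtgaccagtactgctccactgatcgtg
The pair lay 24 bases before the start of Dnah7 and 49 bases before that of Tekt4, counted from its first base. The other 7 members with either form are shown by the match, in capitals, with 10 bases on each side, to let the matches be compared. Their promoters are Ccdc151 (chr8:28810462-28810761, minus strand), Ccdc103 (chr10:88346203-88346502, plus strand), Dnai2 (chr10:100258772-100259071, plus strand) and Dnai1 (chr5:61525829-61526128, plus strand). The rest are Dnah9 (chr10:51363914-51364213, minus strand), Dnaaf2 (chr6:93406274-93406573, minus strand) and Tekt2 (chr5:143907675-143907974, minus strand).
Ccdc151: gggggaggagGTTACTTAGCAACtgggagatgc
Ccdc103: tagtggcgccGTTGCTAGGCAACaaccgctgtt
Dnai2: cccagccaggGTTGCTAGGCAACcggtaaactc
Dnai1: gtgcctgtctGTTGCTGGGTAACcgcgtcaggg
Dnah9: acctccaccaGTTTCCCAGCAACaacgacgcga
Dnaaf2: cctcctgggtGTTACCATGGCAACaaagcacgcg
Tekt2: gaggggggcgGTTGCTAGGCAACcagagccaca
The same 13 letters, GTTGCTAGGCAAC, were found in Ccdc103, Dnai2 and Tekt2. Over all 9 promoters the match began between 3 and 119 bases before the start.

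**Figure D1:**
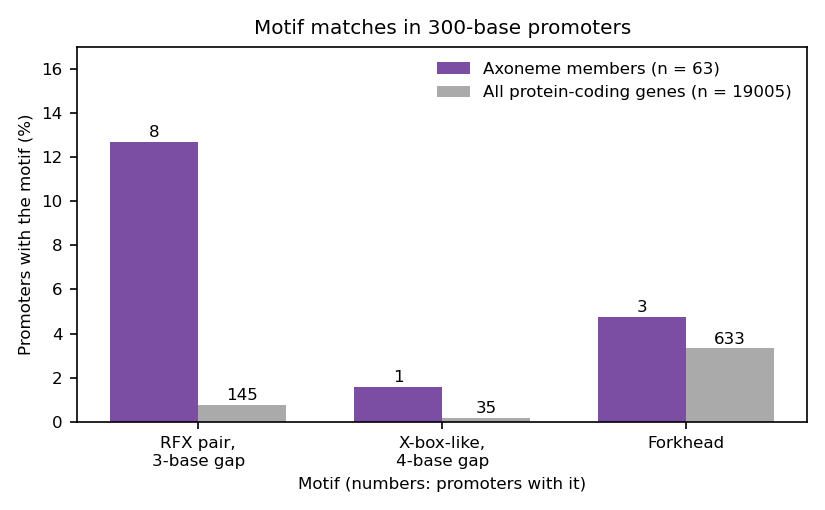
Share of promoters (percent, bars from 0) that hold each motif, for 63 distinct member promoters and for 19005 protein-coding genes, with the number of promoters above each bar. These 63 promoters come from 65 member rows and are not the 63 members averaging at least 10. The RFX pair stood in 12.7% of member promoters and 0.763% of all, while the forkhead shares were 4.76% and 3.33%.

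The comparison of the design asks which transcripts differ after weeks of streptomycin exposure. Among the axoneme genes, the dynein heavy chains Dnah7 and Dnah5 and the tektin Tekt4 fell, the non-axonemal gene Spag4 fell to 0 counts, and Cfap45, a protein of the doublet lumen, rose. A gene was called when its adjusted p in DESeq2 (Wald test, Benjamini-Hochberg adjustment over all genes tested) was under 0.05 and its fold change was over 1.5. By that rule 4 of the 71 members tested were called lower (5.63%), against 1.37% of all 16250 genes tested, and 1 was called higher, against 1.87% of all. Spag4 was among the genes tested only through its Control values. With edgeR's quasi-likelihood test Dnah7, Dnah5 and Tekt4 were called lower, against 0.844% of all genes it tested, and 0 members were called higher, against 0.924%, although 4 were higher at an unadjusted p under 0.05. Total counts were 48568191 to 59906048 in Control and 29333584 to 33744909 in STREP libraries, so depth did not overlap between the groups. In whole tissue, fewer cells of a type and less RNA per cell cannot be told apart.

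Of the 78 members, 5 had 0 counts in every library: Dnah12, Rsph4a, Spag17, Spag11a and Cfap97d1. A count of 0 allows up to 3 counts, or 0.0501 to 0.102 CPM (counts scaled to library size), depending on the library, for counting error only. Another 10 members had counts but averaged under 10 normalised counts (counts divided by the DESeq2 size factor), namely Spag16, Spag6, Cfap58l1, Dnah8, Dnah17, Rsph6a, the second row of Spag5, Spag11bl, Tekt5 and Cfap73. Spag6 and Spag11bl fell under DESeq2's filter on low counts and were not tested, and none of these 10 was called. The other 63 averaged at least 10, and 56 of them at least 100. Some members have close copies, such as Spag6 with Spag6l and Cfap58 with Cfap58l1, and the counting may have divided reads between them.

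**Figure D2:**
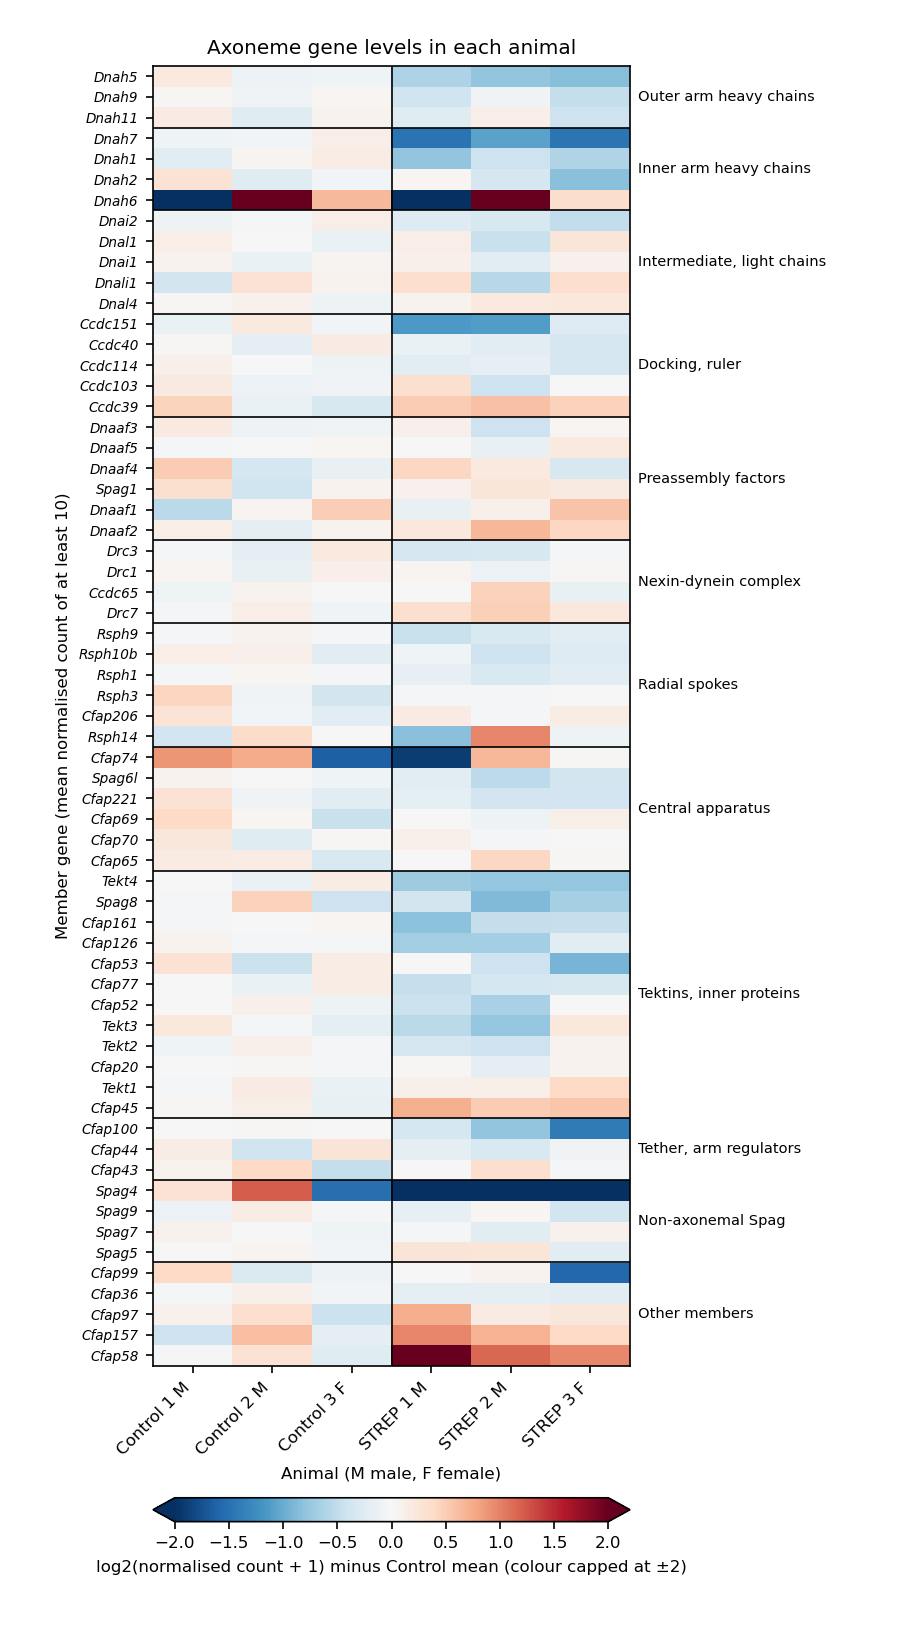
Level of the 63 members averaging at least 10 in each animal, as log2(normalised count + 1) minus the Control mean, with colour capped at 2 in either direction, members in rows by structural group and animals in columns. Dnah7, Dnah5 and Tekt4 are lower in all 3 STREP animals and Cfap45 is higher in all 3, while Dnah6 and Cfap74 vary as much within a group as between groups.

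The outer dynein arms give a cilium most of its power stroke, and of their heavy chains Dnah5 fell. Dnah5, a motor whose loss causes primary ciliary dyskinesia, had 1327, 1068 and 1084 normalised counts in the Control animals (replicates 1, 2 and 3, in that order, here and below) and 748, 665 and 636 in the STREP animals. Every STREP animal was below every Control animal. The group means were 1159.6 ± 146 against 683 ± 58.4 normalised counts (SD over 3 animals), a log2 difference of -0.76 ± 0.18 (SE) with an adjusted p of 0.00112 in DESeq2. The call was lost when library totals were used as size factors (DESeq2 adjusted p = 0.0979). Dnah9, another outer arm motor, had 1445, 1353 and 1468 normalised counts in the Control animals and 1079.8, 1358 and 1026 in the STREP animals. STREP replicate 2 lay within the Control range, and the log2 fold change was -0.30 ± 0.17 (SE) with a DESeq2 adjusted p of 0.5. Dnah11, which pairs with Dnah5 near the base of the cilium, had 3246, 2465 and 3062 normalised counts in the Control animals and 2468, 3183 and 2175 in the STREP animals. The groups overlapped widely (log2 fold change -0.16 ± 0.19 (SE), DESeq2 adjusted p = 0.854). Dnah8 and Dnah17, known from sperm, averaged 9.84 and 3.1 normalised counts.

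Of the inner arm motors Dnah7 fell, with the lowest fold change of all members with a mean of at least 100. Dnah7 had 1449.5, 1483 and 1692 normalised counts in the Control animals and 549.9, 729 and 561 in the STREP animals. The highest STREP value, in replicate 2, was still under every Control value. Its means were 1542 ± 131 against 613 ± 100.2 normalised counts (SD over 3 animals), a log2 difference of -1.33 ± 0.18 (SE) with an adjusted p of 1.08e-10 in DESeq2 and 0.00225 in edgeR. Dnah7 was called lower under every alternative that was run, with a log2 fold change between -1.48 and -1.25 when any 1 animal was left out. Dnah1, an inner arm heavy chain mutated in men with malformed sperm tails, had 585, 709.8 and 759 normalised counts in the Control animals and 395, 509 and 449 in the STREP animals. The groups did not overlap, but the difference of -0.60 ± 0.21 (SE) on the log2 scale did not pass (DESeq2 adjusted p = 0.084). Dnah2 had 523, 364 and 415 normalised counts in the Control animals and 443, 339 and 241 in the STREP animals, with overlapping groups and a log2 difference of -0.35 ± 0.28 (SE) (DESeq2 adjusted p = 0.736). Dnah6 ranged from 0 to 46.4 normalised counts, with 1 animal of each group at 0. The 6 heavy chains with a mean of at least 100 all had log2 fold changes below 0, from -1.33 to -0.16, with a median of -0.47. Among all 12131 genes of that level 49.2% were below 0 and the median was 0.004. With Dnah6 included, 6 of the 7 heavy chains averaging at least 10 were below 0, and their median was -0.35. Among all genes averaging at least 10, 49.1% were below 0 and the median was 0.006.

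Intermediate and light chains, which anchor and regulate the motors, lay nearer to 0 on the log2 scale than Dnah7 and Dnah5. Dnai1, an outer arm intermediate chain, had 1884, 1635 and 1867 normalised counts in the Control animals and 1931, 1553 and 1909 in the STREP animals, and the log2 fold change was 0.001 ± 0.16 (SE). Dnai2, its partner, had 947, 989 and 1113 normalised counts in the Control animals and 845, 813 and 719.5 in the STREP animals. All STREP values of Dnai2 were below all Control values, with a log2 difference of -0.36 ± 0.17 (SE) that did not pass (DESeq2 adjusted p = 0.337). The light chains Dnal1 and Dnal4 and the inner arm chain Dnali1 had log2 fold changes of -0.001, 0.16 and 0.070, and 0 of these 5 chains were called, with a lowest DESeq2 adjusted p of 0.337.

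The docking complex fixes outer arms to the doublet, and the ruler formed by Ccdc39 and Ccdc40 spaces inner arms and spokes. Ccdc151, of the docking complex, had 279, 352 and 295 normalised counts in the Control animals and 138, 141 and 257 in the STREP animals. Both STREP males lay far below the Control range and the STREP female just under it, with a log2 difference of -0.79 ± 0.32 (SE) (DESeq2 adjusted p = 0.196). It was called lower only when that female, STREP replicate 3, was left out. Ccdc114, also of the docking complex, had 2723, 2513 and 2362 normalised counts in the Control animals and 2170.2, 2263 and 2009 in the STREP animals, without overlap and with a log2 difference of -0.24 ± 0.14 (SE) (DESeq2 adjusted p = 0.517). Ccdc39 ran the other way, with 1556, 1038 and 913 normalised counts in the Control animals and 1627, 1715 and 1565 in the STREP animals. Every STREP value of Ccdc39 was above every Control value by a small margin over Control replicate 1, and the log2 fold change of 0.48 ± 0.21 (SE) did not pass (DESeq2 adjusted p = 0.275), although it was called higher without that Control animal. Its partner Ccdc40 had a log2 difference of -0.24 with overlapping groups, and Ccdc103, which helps to attach dynein arms, one of -0.002. None of these 5 genes was called.

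Of the 6 assembly factors, which load and fold dynein in the cytoplasm, 1 had a log2 fold change below 0, with a range from -0.082 to 0.43 and a median of 0.11, and 0 were called (lowest DESeq2 adjusted p 0.278). Dnaaf2 had 857, 684 and 819 normalised counts in the Control animals and 904, 1244 and 1041 in the STREP animals. Its STREP animals were all above its Control animals (log2 fold change 0.43 ± 0.19 (SE), DESeq2 adjusted p = 0.278). Dnaaf5, Spag1 and Dnaaf3 had log2 fold changes of 0.023, 0.14 and -0.082, all with overlapping groups. The Dnaaf5 mean was 1967 ± 49.6 against 1999.8 ± 231 normalised counts (SD over 3 animals).

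In the nexin-dynein regulatory complex, which links neighbouring doublets, 0 of 4 members were called. Drc1 had 3102, 2727 and 3227 normalised counts in the Control animals and 3121, 2778 and 3052 in the STREP animals, a log2 difference of -0.017 ± 0.14 (SE). Drc7 had 619, 695 and 596 normalised counts in the Control animals and 791, 883 and 736 in the STREP animals, without overlap and higher in STREP (log2 fold change 0.34 ± 0.18 (SE), DESeq2 adjusted p = 0.446). Drc3 and Ccdc65 overlapped between the groups, with log2 fold changes of -0.24 and 0.13.

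The radial spokes carry signals from the central apparatus to the dyneins. Rsph9, a spoke head protein, had 2007, 2149 and 1993 normalised counts in the Control animals and 1507, 1662 and 1771 in the STREP animals. Rsph1, also of the spoke head, had 1436, 1489 and 1434 normalised counts in the Control animals and 1301, 1181 and 1254 in the STREP animals. Both were lower in every STREP animal, with log2 fold changes of -0.32 ± 0.14 (SE) and -0.22 ± 0.14 (SE), and neither passed (DESeq2 adjusted p = 0.285 and 0.581). Rsph10b and Cfap206, which sits at the spoke base, overlapped between the groups, at -0.26 and 0.078 on the log2 scale. Rsph4a, a further spoke head protein of airway cilia, was at 0 counts in all 6 libraries.

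Among central apparatus genes Spag6l had 2200.1, 2107 and 1979 normalised counts in the Control animals and 1805, 1459 and 1616 in the STREP animals. These values did not overlap, with a log2 difference of -0.37 ± 0.15 (SE) that did not pass (DESeq2 adjusted p = 0.202). Cfap65 and Cfap69 overlapped, at 0.14 and -0.035. Over the 6 members with a mean of at least 10 the log2 fold changes ran from -0.43 to 0.15 and 0 were called. Spag17, a large central apparatus protein, had 0 counts throughout.

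Tektins and other microtubule inner proteins formed the group with most members. In it Tekt4 was called lower and Cfap45 higher, the latter near the threshold and not in edgeR. Tekt4, one of the filament proteins of the doublet wall, had 944, 862 and 1054 normalised counts in the Control animals and 580.5, 553 and 556 in the STREP animals. The 3 STREP values lay close together and under all Control values. Its means were 953 ± 96.1 against 563 ± 15 normalised counts (SD over 3 animals), a log2 difference of -0.76 ± 0.17 (SE) with a DESeq2 adjusted p of 0.000784. The call was lost with library totals as size factors and in the males alone (DESeq2 adjusted p = 0.0692 and 0.138). Cfap161 had 2544, 2590.2 and 2692 normalised counts in the Control animals and 1475, 1868 and 1889 in the STREP animals. The groups did not overlap and the DESeq2 adjusted p was 0.00682, but the log2 fold change of -0.58 ± 0.15 (SE) stayed just inside the threshold of 0.585, so Cfap161 was not called. It was called with TMM size factors and without Control replicate 1, Control replicate 2, STREP replicate 2 or STREP replicate 3. An adjusted p under 0.05 with a lower value in STREP was reached by 1.62% of all genes tested, and one with a higher value by 2.1%.

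Cfap126, also called flattop and known in the inner ear for the placing of the basal body, had 3237, 3026 and 3016 normalised counts in the Control animals and 1915, 1928 and 2639 in the STREP animals. Both STREP males were far under the Control range and the STREP female was under it too, but nearer. Its log2 fold change was -0.52 ± 0.17 (SE), inside the threshold of 0.585, with a DESeq2 adjusted p of 0.052. Cfap126 therefore passed neither threshold and was not called in the main test. With TMM size factors and with sex as a covariate the DESeq2 adjusted p was 0.0433 and 0.0181. The log2 fold changes of -0.53 and -0.54 stayed inside the threshold there too. Cfap126 was called in the males alone (-0.71, DESeq2 adjusted p = 0.00282) and without STREP replicate 3. The paper, which states the same thresholds, lists Cfap126 as downregulated in all its models, rats given streptomycin included. It also lists the HC genes Myo7a and Lhfpl5 as downregulated by streptomycin. Here their log2 fold changes of -0.49 and -0.45 stayed inside 0.585 (DESeq2 adjusted p = 0.0162 and 0.0161). The reason for these differences was not tested. Spag8, another inner protein, had 1455, 2057 and 1125 normalised counts in the Control animals and 1159.6, 813 and 947 in the STREP animals, where STREP replicate 1 lay within the Control range (log2 fold change -0.67 ± 0.24 (SE), DESeq2 adjusted p = 0.113). It was called lower in the males alone and without Control replicate 3. Cfap77 had 3310.3, 3048 and 3693 normalised counts in the Control animals and 2416, 2620.4 and 2682 in the STREP animals, without overlap (log2 fold change -0.38 ± 0.14 (SE), DESeq2 adjusted p = 0.125).

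Cfap45 had 578, 617 and 513 normalised counts in the Control animals and 929, 807 and 836 in the STREP animals. All STREP animals were above all Control animals. The means were 569.6 ± 52.4 against 857 ± 64.1 normalised counts (SD over 3 animals), a log2 difference of 0.59 ± 0.18 (SE) with a DESeq2 adjusted p of 0.0288. This call was near the threshold of fold change and p, and was lost in edgeR (adjusted p = 0.114), with other scalings, in the males alone, after thinning the libraries to equal totals, and without Control replicate 1, Control replicate 3, STREP replicate 1 or STREP replicate 3, when the log2 fold change stayed between 0.52 and 0.61. Tekt2 and Tekt1 overlapped between the groups, at -0.21 and 0.21 on the log2 scale. Of the 12 inner proteins with a mean of at least 10, 10 had log2 fold changes below 0, and the median was -0.36.

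**Figure D3:**
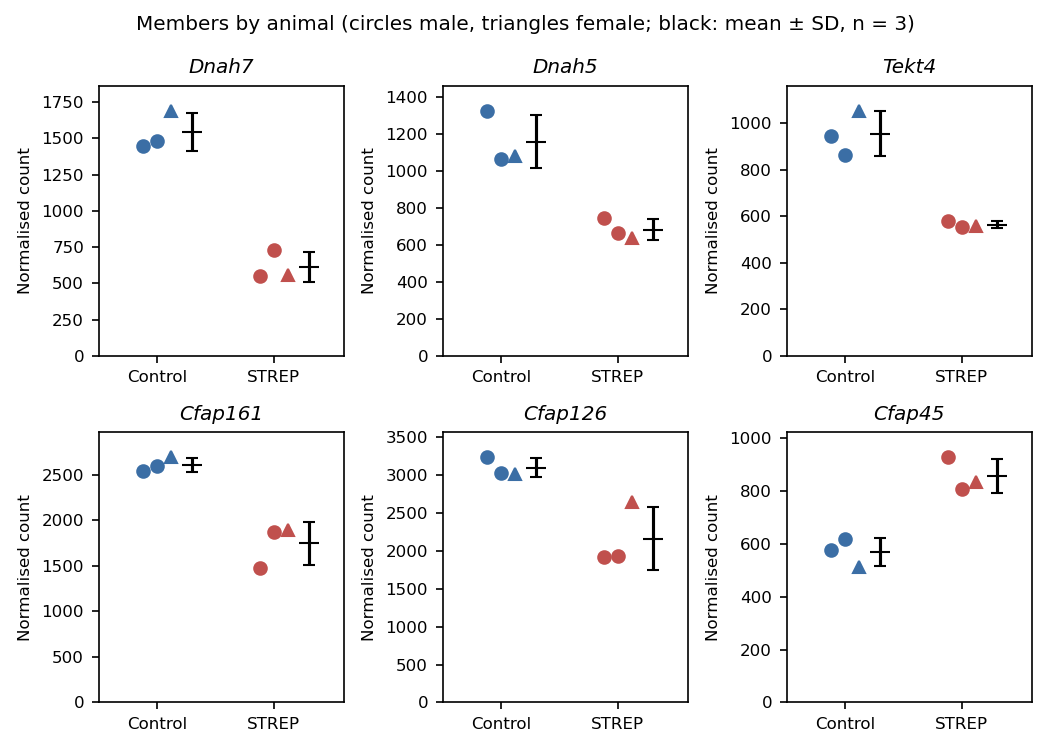
Normalised count of 6 members in each animal, on axes that start at 0, with circles for males, triangles for females and the mean ± SD of 3 animals in black. Dnah7, Dnah5, Tekt4, Cfap161 and Cfap126 are lower in every STREP animal than in any Control animal, and Cfap45 is higher in every STREP animal.

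Cfap43 and Cfap44 tether inner arms to the doublet, and Cfap100 belongs to a complex that regulates them. Cfap100 had 125, 128 and 125 normalised counts in the Control animals and 98.5, 72.3 and 46.4 in the STREP animals. Its STREP values were lower and more spread than its Control values, which lay close together (log2 fold change -0.80 ± 0.41 (SE), DESeq2 adjusted p = 0.412). Cfap43 and Cfap44 overlapped, at 0.060 and -0.21. Of the members in no structural group, Cfap58 and Cfap97 had the highest log2 fold changes with a mean of at least 10 and of at least 100, respectively, at 1.66 ± 0.67 (SE) and 0.37 ± 0.29 (SE), and neither passed (DESeq2 adjusted p = 0.19 and 0.719).

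The rule by name also took in 7 rows of Spag genes that are not parts of the axoneme, which leaves 71 of the 78 rows. Spag4, which codes for a SUN-domain protein of the nuclear envelope, had 26.4, 51 and 6.88 normalised counts in the Control animals and 0, 0 and 0 in the STREP animals. Counts were 43, 60 and 8 in Control and 0 in each STREP library. The Control mean was 28.1 ± 22.1 normalised counts (SD over 3 animals). Against a floor of 3 counts over the STREP group, that mean was at least 22.0-fold higher. This bound takes the Control mean as exact and covers counting error in STREP only. Spag4 was called lower with a DESeq2 adjusted p of 0.0022. The call was lost without Control replicate 2 (DESeq2 adjusted p = 0.166) and in edgeR without a count filter (adjusted p = 0.0562), and Spag4 was not tested where genes needed 10 counts in 3 samples or under edgeR's own count filter. Spag5, a mitotic spindle protein, Spag7 and Spag9, a scaffold of JNK signalling, had log2 fold changes of 0.11, -0.056 and -0.16 with overlapping groups. That value of Spag5 is from its row of higher mean. Its second row averaged 9.94 normalised counts and was at -1.06 ± 1.38 (SE), with overlapping groups (DESeq2 adjusted p = 0.889). Without the 7 rows, 3 of 66 members tested were called lower, against 1.37% of all genes, and 1 higher, against 1.87%.

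**Figure D4:**
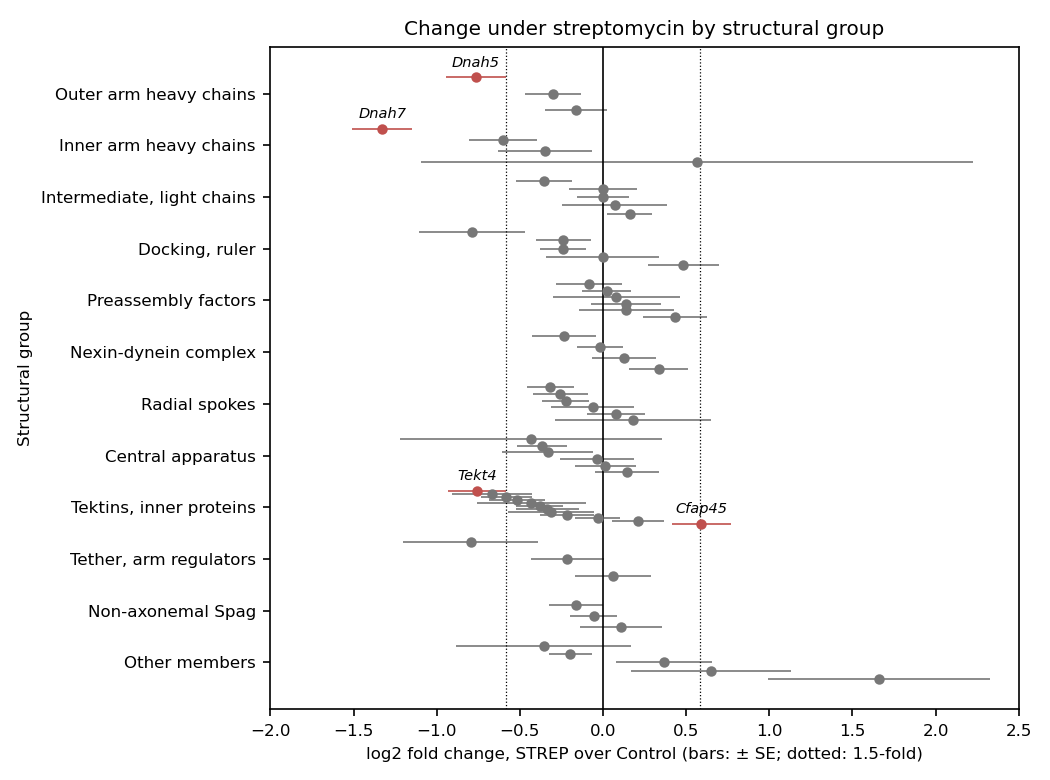
Log2 fold change of STREP over Control for the members averaging at least 10, by structural group, as points with ± SE bars, with called genes in red and dotted lines at a fold change of 1.5. Dnah7, Dnah5 and Tekt4 lie left of the lines and Cfap45 at the right line, and Spag4, at 0 counts in STREP, is beyond the axis and not drawn.

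Across the whole list, more members lay below 0 than above. Of the 63 members with a mean of at least 10, 40 had a log2 fold change below 0 (63.5%), against 49.1% of the 14957 genes of that level, and the median was -0.16 against 0.006. Without Control replicate 1 the median of the members was -0.091. Of the 71 tested, 17 were lower in every STREP animal than in any Control animal (23.9%), against 8.63% of all genes tested. In the other direction the count was 5 (7.04%), against 9.12%. At an unadjusted p under 0.05 in DESeq2, 14 of the 71 members were lower, against 5.56% of all genes tested, and 4 were higher, against 6.65%. In the groups where neither DESeq2 nor edgeR called a gene, those at an unadjusted p under 0.05 in DESeq2 were Spag6l, Ccdc151, Dnai2 and Rsph9, lower, and Ccdc39, Dnaaf2 and Cfap58, higher. The level of the list in each animal, taken as log2(normalised count + 1) averaged over the 63 members with the Control mean subtracted, was 0.028, 0.064 and -0.092 in Control and -0.22, -0.15 and -0.21 in STREP. Without the Spag genes outside the axoneme, over 59 members, it was 0.025, 0.045 and -0.070 in Control and -0.16, -0.088 and -0.14 in STREP, a small margin between the groups. The summed level of all members overlapped, at 2490, 2171 and 2050 CPM in Control and 2028, 2285 and 1658 in STREP. That sum weights genes of high count most and is scaled by library totals, not by size factors as the levels above. STREP replicates 2 and 3 had size factors of 0.9262 and 0.6685 at totals of 31814684 and 33744909 counts. The parts of the weighting and of the scaling in that overlap were not tested. Over the 6 heavy chains with a mean of at least 100, so without Dnah6, the mean log2 level was 0.062, -0.11 and 0.046 in Control. It was -0.58, -0.43 and -0.77 in STREP. Over the inner proteins of the doublet it was 0.031, 0.016 and -0.047 in Control and -0.29, -0.42 and -0.17 in STREP.

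Axoneme genes named outside the rule, such as Hydin of the central apparatus and Mns1 of the doublet lumen, had 3 of 41 tested called lower, against 1.37% of all genes, and 0 called higher, against 1.87%. Of the 41, 31 lay below 0, against 49.1% of all genes, and the median was -0.13. Dynlrb2, a dynein light chain of the roadblock type, had 1162, 1041 and 1253 normalised counts in the Control animals and 603, 704 and 654 in the STREP animals. Wdr66, a spoke protein also named Cfap251, had 1087, 1335 and 1531 normalised counts in the Control animals and 782, 904 and 657 in the STREP animals. Ak8, an adenylate kinase of cilia, had 688, 746 and 754 normalised counts in the Control animals and 397, 552 and 417 in the STREP animals. The groups did not overlap for these 3 genes, with log2 fold changes of -0.82 ± 0.17 (SE), -0.75 ± 0.20 (SE) and -0.68 ± 0.20 (SE) and DESeq2 adjusted p of 0.000141, 0.008 and 0.0306. Intraflagellar transport genes, which carry cargo along every kind of cilium, were taken only as those named Ift and a number. Of these 13, 0 were called, with log2 fold changes between -0.41 and 0.35 and a median of 0.002. In DESeq2 1 was lower at an unadjusted p under 0.05, while edgeR called 0. Transport genes of other names were not in this list. Of the 11 regulators of ciliogenesis 6 were tested, and 0 were called in DESeq2 or edgeR or had an unadjusted p under 0.05 in DESeq2. Rfx2 had 1243, 771 and 706 normalised counts in the Control animals and 912, 619.7 and 1239 in the STREP animals, and Rfx3 had 1092, 917 and 1335 normalised counts in the Control animals and 1434, 1357 and 742 in the STREP animals. Both overlapped, with log2 fold changes of 0.025 ± 0.29 (SE) and 0.080 ± 0.26 (SE). Mcidas and Tp73, known from multiciliated cells, were at 0 counts in every library, and Foxj1 was not analysed here.

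The 9 members whose promoters hold either RFX form are those printed above. Their log2 fold changes ran from -1.33 (Dnah7) to 0.43 (Dnaaf2), with 7 of 9 below 0 and a median of -0.30. Ccdc103, among those 7, was at -0.002. Of all 63 members with a mean of at least 10, 63.5% were below 0 and the median was -0.16. Of the 4 members called lower, Dnah7 and Tekt4 hold the RFX pair, where 8 of the 63 member promoters read (12.7%) hold it. A link between the pair and the change was not tested. No RFX form was found in the windows of Dnah5, Spag4 and Cfap45.

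Markers of the cell types of the tissue were measured beside the axoneme genes. All 24 HC markers had counts, and 6 were called lower (Tmc2, Pvalb, Strc, Loxhd1, Cabp2 and Cib2) and 1 higher (Gfi1), against 1.37% and 1.87% of all genes tested, with a median log2 fold change of -0.26 and 18 of 24 below 0, where 49.1% of all genes lay below 0. Their summed level was 3033 to 3542 CPM in Control and 2404 to 3050 in STREP. Of 12 supporting cell markers 0 were called in DESeq2 or edgeR, 3 were higher at an unadjusted p under 0.05 in DESeq2, the median was 0.14, and the summed level was 15610 to 17420 CPM in Control and 18460 to 22330 in STREP. The HC sums overlapped between the groups in a narrow range, and the supporting cell sums did not overlap. Otog, which codes for a protein of the acellular membranes over the HCs, made up 55.9 to 65.3% of the supporting cell sum, and without it the sum was 6495 to 7683 CPM in Control and 6599 to 7878 in STREP, which overlapped. Of 9 markers of multiciliated and airway cells, 4 (Bpifa1, Cdhr3, Scgb3a1 and Sntn) were at 0 counts in every library, no marker exceeded 95 counts in any library, and the summed level was 1.15 to 2.00 CPM in Control and 0.880 to 1.43 in STREP. The per-animal level of the HC markers was 0.071, -0.059 and -0.012 in Control and -0.46, -0.23 and -0.41 in STREP on the log2 scale. That of the supporting cell markers overlapped, at -0.11, -0.054 and 0.16 in Control and 0.016, -0.024 and 0.29 in STREP. The part of these markers in the axoneme values was not tested.

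**Figure D5:**
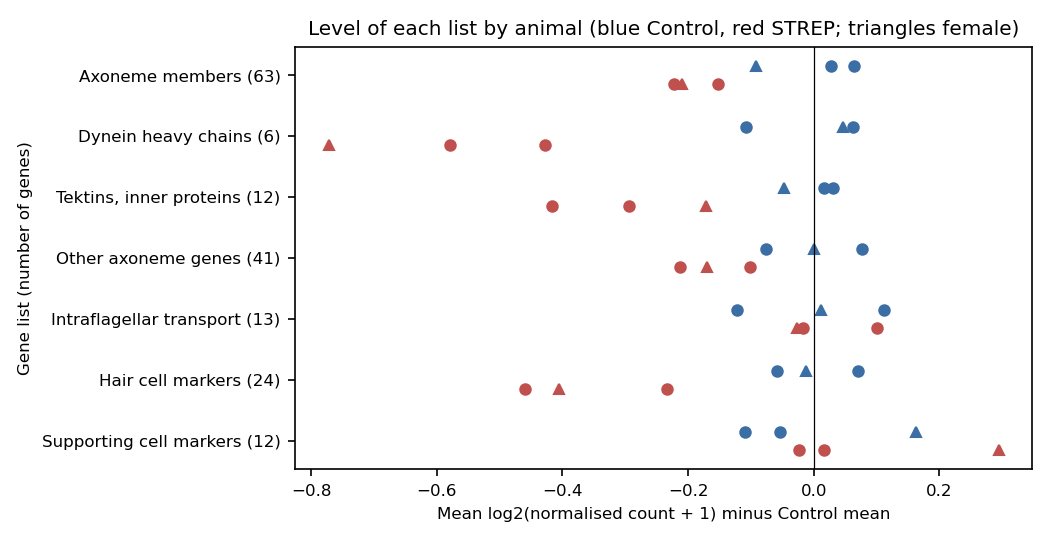
Mean of log2(normalised count + 1) over each list minus the Control mean, for each animal, in blue for Control and red for STREP, with triangles for females. STREP animals lie below Control animals for the axoneme members, the inner proteins of the doublet, the other axoneme genes and the HC markers. They also do so for the 6 dynein heavy chains with a mean of at least 100. They overlap Control animals for the intraflagellar transport and supporting cell lists.

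Both sexes were in each group, so the change was compared between them. In a DESeq2 test of the interaction of sex and group, 0 of the 60 members tested passed an adjusted p of 0.05, 5 had an unadjusted p under 0.05, and 34 of all 13134 genes tested passed. With 1 female in each group, this test rests on single animals. With sex as a covariate Dnah5, Dnah7, Spag4 and Tekt4 were again called lower and Cfap45 higher.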

How the data were processed

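RNA was measured by SMARTseq2 sequencing in 6 libraries, 1 per rat. Per the submitters' processing notes, the authors aligned reads with STAR 2.5.3a and quantified genes with RSEM 1.3.0; the study's methods give a rat Rnor6 reference with an Ensembl annotation. The authors deposited expected counts per gene, estimated read numbers without scaling between libraries, and 0 of the values were not whole, so that rounding changed nothing. Groups were taken from the treatment labels, and replicates were numbered in order of deposition.

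The main test was DESeq2 1.42.0 (in R 4.3.3), as in the study's methods: all 6 libraries, group as the only factor, median-of-ratios size factors, Wald tests, and a call at an adjusted p under 0.05 with a fold change over 1.5. The median and the share below 0 were taken over genes averaging at least 10 normalised counts. edgeR 4.0.16, other scalings and filters, sex as a covariate, males alone, thinning to the smallest total, and leaving out each animal were alternatives. The scripts were tested on simulated counts. Named members were all those called, Cfap126, the 3 with the highest mean in each structural group, and the 5 lowest and 5 highest fold changes with a mean of at least 100. Others were named after their values were seen. The members and gene lists were chosen with earlier results of these data known. Levels were not compared between genes, since gene lengths were not used here. Promoters came from RefSeq build GRCr8, of which 62 rows matched by symbol and 3 by an older symbol, and 1 further member promoter is not reported here. One row of a matching name, Cfap57, was not protein-coding and was left out. Floors of 3 counts cover counting error only, since the reads carry no molecular identifiers.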

Additional observations from a re-analysis of the deposited data

How the results depend on the processing

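The count of members called lower, 4 in DESeq2, was 2 with library totals as size factors (Dnah7 and Spag4) and between 4 and 8 when 1 animal was left out, with 8 without STREP replicate 3, when Ccdc151, Cfap126, Cfap161 and Tekt3 joined the list. The count of members called higher, 1, was 0 in edgeR with and without a count filter, with library totals, with TMM size factors, in males alone and after thinning, and between 0 and 1 with 1 animal left out (0 without Control replicate 3, STREP replicate 1 or STREP replicate 3). The median of the members was -0.16 to -0.091 with 1 animal left out, the latter without Control replicate 1, and the number below 0 was 38 to 44. Members near 0 changed sign. Dnai1 was -0.002 and -0.005 in edgeR with and without the filter, -0.030 with library totals, -0.005 with TMM and -0.017 in males. Dnaaf5 was -0.008 with library totals and -0.052 in males, Drc1 was 0.015 in males and 0.007 after thinning, Dnal1 was 0.001 with a filter of 10 counts in 3 samples, and Cfap206 and Cfap43 were -0.051 and -0.083 in males. With 1 animal left out the ranges were -0.23 to 0.18 for Cfap69, -0.13 to 0.18 for Dnal1, -0.066 to 0.098 for Dnaaf5, -0.18 to 0.060 for Dnaaf3, -0.064 to 0.094 for Dnai1, -0.037 to 0.31 for Spag1, -0.086 to 0.033 for Drc1, -0.023 to 0.22 for Cfap206, -0.14 to 0.27 for Cfap43, -0.003 to 0.22 for Cfap65, -0.080 to 0.25 for Ccdc65 and -0.13 to 0.023 for Spag7. The cause was not tested. No paired analysis was possible because the labels carry no replicate numbers shared between the groups. With 3 animals a group, small differences of members with few counts are not detectable, and depth was lower in every STREP library.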

Other observations

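Cfap57, which binds the inner arms and was left out because its row is a processed transcript, had 109, 196 and 136 normalised counts in the Control animals and 162, 234 and 148 in the STREP animals. The groups overlapped, with a log2 fold change of 0.31 ± 0.36 (SE) and a DESeq2 adjusted p of 0.856.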
